A study of Mus musculus with 2 samples.

Results

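The antioxidant genes of the NRF2 response described here are Nfe2l2, Keap1, Nqo1, Gclc, Gclm, Slc7a11, Srxn1, Txnrd1, Prdx1 and Sod2. They were taken from the gene expression table by gene name, which found 10 of its 54532 genes, each in 1 row. RNA was sequenced from macrophages that had been sorted from the mouse aorta on F4/80 and CD11b. All mice were ApoE-/- on the C57BL/6J background with a labelled age of 6 weeks. The cells of 5 mice were pooled into 1 library in each of 2 groups. The group named Phlegm-Dampness Retention, or PDR, had received a high-fat diet for 4 weeks. The group named Spleen and Kidney Yang Deficiency, or SKYD, had received propylthiouracil at 10 mg/kg per day for 4 weeks and then a high-fat diet for 2 weeks. Propylthiouracil blocks the synthesis of thyroid hormone, so diet length and drug differed together between the groups. Modelling also lasted 4 weeks in PDR and 6 weeks in SKYD, and the parts of diet, drug, duration and age at sampling cannot be told apart. The comparison asks how macrophages of these 2 dyslipidemia models differ.

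NRF2 is a transcription factor that KEAP1 holds in the cytoplasm and hands to a ubiquitin ligase for destruction. Oxidants and electrophiles modify cysteines of KEAP1, NRF2 then accumulates in the nucleus, pairs with small MAF proteins and binds antioxidant response elements near its target genes. The targets supply glutathione, thioredoxin and quinone reduction, and oxidised phospholipids of the artery wall are among the known activators of the pathway in macrophages.

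Values were in FPKM, the fragments of a gene relative to its length and to a size set for the library. A difference is log2(FPKM + 1) in PDR minus SKYD, which understates the change of low genes. FPKM times gene length came in whole steps, 1 step being 1 read, so the reads of each gene could be recovered. The reads on genes summed to 23086889 in PDR and 25427863 in SKYD. The size behind the FPKM was 2.3488e+07 in PDR and 2.49936e+07 in SKYD, so it was not the reads on genes. With 1 library a group there was no replicate check, and all intervals are exact 95% intervals for counting error only. Fewer cells of a type and less RNA per cell cannot be told apart in such bulk libraries.

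The differences of the 10 genes were mostly small, and they went in both directions. 9 of the 10 genes passed the filter of a mean FPKM of at least 1, and these 9 were above 1 FPKM in both libraries. Slc7a11 did not pass. Of the 9, 1 gene, Srxn1, was more than 2-fold higher in SKYD, and 0 were more than 2-fold higher in PDR. Among all 10399 tested genes the same threshold was passed by 6.91% toward SKYD and 7.38% toward PDR, so 1 of 9 is close to that background. The median difference of the 9 genes was -0.04, and that of all tested genes was -0.0035. Of the 10 intervals, 4 lay above 0, 5 lay below 0 and that of Nqo1 included 0.

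**Figure D1:**
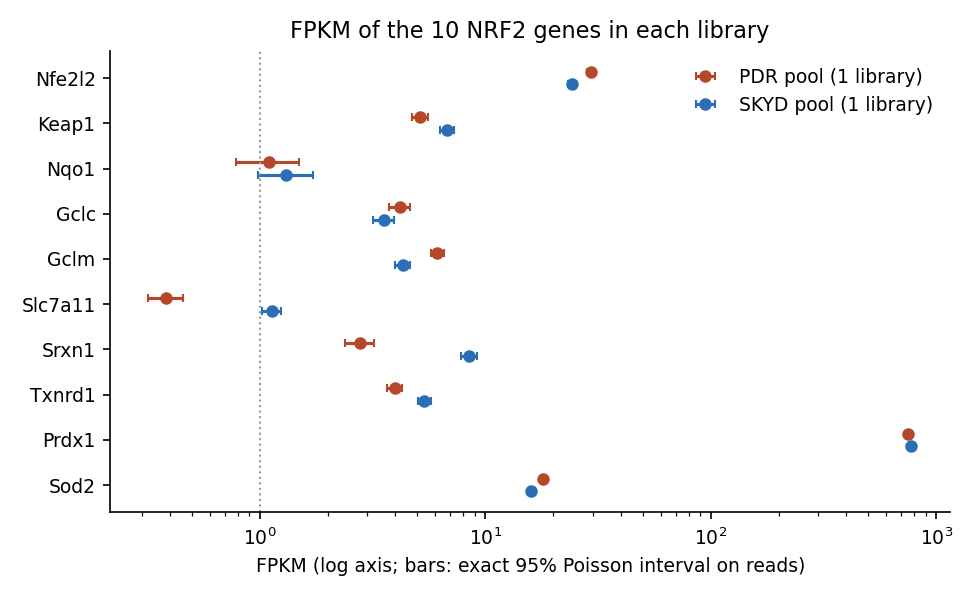
FPKM of each of the 10 genes on a log axis in the PDR library and the SKYD library, with exact 95% Poisson intervals on the reads and a dotted line at 1 FPKM. Prdx1 lies near 753 FPKM in PDR and 775 in SKYD, far above the others, and Slc7a11 lies lowest at 0.385 in PDR and 1.13 in SKYD.

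Both regulators were expressed in both libraries. Nfe2l2, which encodes NRF2 (ENSMUSG00000015839, chr2:75675513-75704641, minus strand), was at 29.5 FPKM or 2629 reads in PDR and at 24.3 FPKM or 2305 reads in SKYD. PDR was the higher library, 1.21-fold (1.15 to 1.28), with a difference of 0.27 (0.19 to 0.35). Keap1, which encodes the inhibitor of NRF2 (ENSMUSG00000003308, chr9:21229730-21239361, minus strand), was at 5.14 FPKM or 567 reads in PDR and 6.76 FPKM or 793 reads in SKYD. SKYD was the higher library for Keap1, with a difference of -0.34 (-0.47 to -0.20) that became 0.31 when values were centred on macrophage markers. Factor and inhibitor thus lay on opposite sides of 0 on the deposited scale. Their ratio within a library does not depend on scaling. Nfe2l2 had 5.73 times the FPKM of Keap1 in PDR and 3.59 times in SKYD, and the first ratio was 1.60 times the second (1.41 to 1.80). This pair, like the other ratios given here, was chosen after the values were seen.

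Nqo1, a quinone reductase that is a common readout of NRF2 activity (ENSMUSG00000003849, chr8:107388225-107403206, minus strand), was close to the filter of 1 FPKM. It had 1.10 FPKM from 40 reads in PDR and 1.31 FPKM from 51 reads in SKYD. The difference of -0.14 had an interval of -0.48 to 0.20, so no difference was detectable at this depth on the deposited scale. It became 0.51 when centred on macrophage markers. Of the tested genes, 7.46% had a lower FPKM in PDR and 9.73% in SKYD.

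Among the genes of glutathione synthesis, the ligase subunits were higher in PDR and the cystine carrier was higher in SKYD. Gclc, the catalytic subunit of glutamate-cysteine ligase (ENSMUSG00000032350, chr9:77754535-77794485, plus strand), was at 4.17 FPKM or 369 reads in PDR and 3.55 FPKM or 334 reads in SKYD. PDR was the higher library by 0.19, with an interval of 0.01 to 0.36 that nearly reached 0. Gclm, the subunit that modifies the activity of this ligase (ENSMUSG00000028124, chr3:122245557-122270732, plus strand), was at 6.13 FPKM or 906 reads in PDR and 4.31 FPKM or 677 reads in SKYD. PDR was again the higher library, 1.42-fold (1.29 to 1.58), with a difference of 0.43 (0.31 to 0.55), the highest of the 9 genes on the deposited scale. The modifier exceeded the catalytic subunit in FPKM in both libraries. The ratio of Gclm to Gclc was 1.47 in PDR and 1.21 in SKYD, and the first was 1.21 times the second (1.01 to 1.45).

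Slc7a11 encodes the chain of the cystine and glutamate exchanger that brings cystine into the cell (ENSMUSG00000027737, chr3:49892526-50443614, minus strand). It was at 0.385 FPKM or 126 reads in PDR and at 1.13 FPKM or 393 reads in SKYD. SKYD was 2.93-fold higher (2.39 to 3.61) in FPKM, a ratio close to that of Srxn1. The mean FPKM was 0.757, below the filter, and the pseudocount of 1 shrank the difference to -0.62 (-0.72 to -0.52), which became 0.03 when centred on macrophage markers. That change of sign comes with the pseudocount, since the log2 ratio of reads centred on the same markers was -0.75. As a log2 ratio of reads scaled to each library's total it was -1.502, past 2-fold, a threshold that 13.8% of the 16519 genes with at least 1 read in both libraries passed toward SKYD. The partner chain Slc3a2, named after its values were seen, was at 46.2 FPKM in PDR and 40.0 FPKM in SKYD. Slc7a11 relative to Slc3a2 was 3.39 times as high in SKYD as in PDR (2.75 to 4.20), and relative to Gclc it was 3.44 times as high (2.67 to 4.46). Carrier and ligase therefore differed unequally between the libraries.

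Of the thioredoxin and peroxiredoxin genes, Srxn1 differed most. Srxn1 encodes sulfiredoxin, which repairs overoxidised peroxiredoxins (ENSMUSG00000032802, chr2:152105516-152111376, plus strand). It was at 2.78 FPKM or 184 reads in PDR and at 8.48 FPKM or 598 reads in SKYD. SKYD was 3.05-fold higher (2.58 to 3.62), with a difference of -1.33 (-1.52 to -1.14). Only 4.52% of the tested genes had a lower difference. Srxn1 was the higher in SKYD under every scaling tried, but centring on macrophage markers brought the difference to -0.68, within 2-fold. Relative to the genes of the 2 sorting antigens, chosen after their values were seen, Srxn1 was 2.86 times as high in SKYD as in PDR for Adgre1, the gene of F4/80 (2.41 to 3.40), and 1.88 times for Itgam, the gene of CD11b (1.56 to 2.27).

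Txnrd1 encodes the thioredoxin reductase of the cytosol (ENSMUSG00000020250, chr10:82833951-82897712, plus strand). It was at 3.97 FPKM or 661 reads in PDR and 5.37 FPKM or 951 reads in SKYD. SKYD was 1.35-fold higher (1.22 to 1.495), with a difference of -0.36 (-0.48 to -0.24) that became 0.29 when centred on macrophage markers. Srxn1 and Txnrd1 thus pointed the same way on the deposited scale, with unequal size. The FPKM ratio of Srxn1 to Txnrd1 was 0.699 in PDR and 1.58 in SKYD.

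Prdx1, a peroxiredoxin that reduces hydrogen peroxide (ENSMUSG00000028691, chr4:116685544-116700822, plus strand), was the most abundant of the 10 genes. It was at 752.6 FPKM or 53790 reads in PDR and at 775 FPKM or 58941 reads in SKYD. The libraries differed by 1.03-fold (1.02 to 1.04) with SKYD higher, and the difference of -0.04 turned positive under 6 other scalings, so its direction depends on the scale. In each library 99.1% of the tested genes had a lower FPKM. Sulfiredoxin and its substrate therefore differed unequally. The FPKM ratio of Srxn1 to Prdx1 was 0.00369 in PDR and 0.0109 in SKYD, 2.97 times as high in SKYD (2.51 to 3.52).

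Sod2 encodes the superoxide dismutase of mitochondria, and is also a known target of NF-kB (ENSMUSG00000006818, chr17:13006846-13040063, plus strand). It was at 18.0 FPKM or 4228 reads in PDR and at 16.0 FPKM or 3995 reads in SKYD. PDR was the higher library, 1.13-fold (1.08 to 1.18), with a difference of 0.16 (0.10 to 0.22).

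In FPKM, the order from the top was Prdx1, Nfe2l2 and Sod2 in both libraries, and Slc7a11 was lowest in both, followed by Nqo1, whose Poisson interval overlapped that of Slc7a11 in SKYD. The middle of the order changed. In PDR Gclm, Keap1, Gclc, Txnrd1 and Srxn1 followed each other downward, and the Poisson intervals of Gclc and Txnrd1 overlapped. In SKYD Srxn1 led this middle group, followed by Keap1, Txnrd1, Gclm and Gclc.

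**Figure D2:**
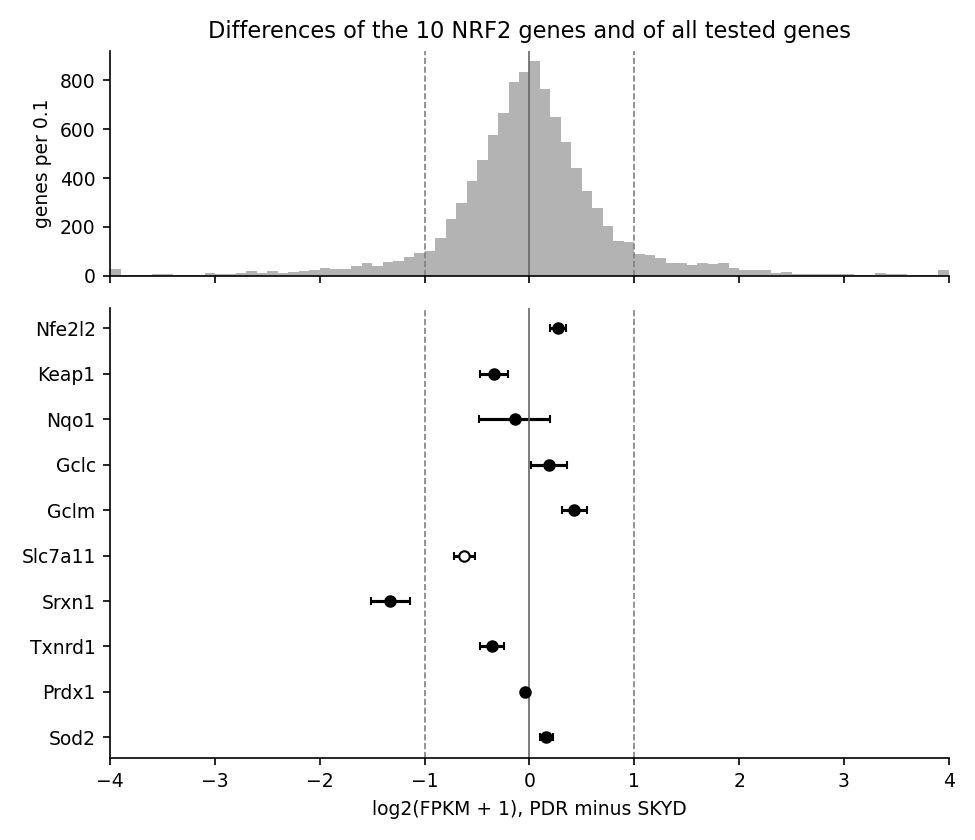
Upper panel, number of tested genes per 0.1 of the difference in log2(FPKM + 1), PDR minus SKYD, with genes beyond the axis counted in the end bins. Lower panel, the 10 genes with exact 95% intervals on the split of reads, dashed lines at 2-fold and an open circle for Slc7a11, which did not pass the filter. Srxn1 at -1.33 lies past the 2-fold line.

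The promoter sequences of Srxn1 and Slc7a11 are shown because these genes had the largest ratios between the libraries. Those of Gclm, Prdx1 and Txnrd1 are shown because they matched the core of the antioxidant response element as searched here. Sequences are from RefSeq on build GRCm38.p6, 250 bases before to 50 bases after a gene's start, and matched 9 of the 10 genes by symbol, with 11 starts in all. Gclc was not matched. The core was searched as TGACNNNGC on both strands, with no other letter allowed at its fixed bases. A second motif, the amino acid response element TGATGNAA bound by ATF4, was added after the values were seen, since Slc7a11 is also known as an ATF4 target. Only bases before the start that lie in no annotated exon are printed, 5′ to 3′ on the strand of the gene, with matches to either motif in capitals.

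The following stretches lie at chr2:152105274-152105515 on the plus strand for Srxn1 and at chr3:50443615-50443863 on the minus strand for Slc7a11.
Srxn1: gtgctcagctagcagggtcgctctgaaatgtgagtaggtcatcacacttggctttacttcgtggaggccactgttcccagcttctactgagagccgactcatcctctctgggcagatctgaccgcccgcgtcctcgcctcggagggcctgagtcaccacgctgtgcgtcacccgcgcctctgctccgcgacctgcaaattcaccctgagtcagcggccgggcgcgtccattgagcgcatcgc
Slc7a11: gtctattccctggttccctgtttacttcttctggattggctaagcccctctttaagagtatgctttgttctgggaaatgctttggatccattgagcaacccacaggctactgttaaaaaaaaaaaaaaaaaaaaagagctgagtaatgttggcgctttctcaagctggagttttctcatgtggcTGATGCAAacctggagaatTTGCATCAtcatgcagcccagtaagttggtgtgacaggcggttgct

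Srxn1 had no match to either motif as searched in the printed bases. These bases do hold tgagtcagc, which differs from the core only at the 4th base, G in place of C. Such near matches were not searched in any gene, so no share of promoters can be set beside it. The single core match of Srxn1 lay 29 bases into the transcript, on the opposite strand. Slc7a11 had no core match in the window and 2 matches to the amino acid element, which begin 66 and 47 bases before the start on opposite strands. The latter motif occurred in 3.97% of all 32851 promoter windows.

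The following stretches lie on the plus strand, at chr3:122245307-122245556 for Gclm, at chr4:116685349-116685543 for Prdx1 and at chr10:82859009-82859178 for Txnrd1, the latter before 1 of its 3 starts in the table.
Gclm: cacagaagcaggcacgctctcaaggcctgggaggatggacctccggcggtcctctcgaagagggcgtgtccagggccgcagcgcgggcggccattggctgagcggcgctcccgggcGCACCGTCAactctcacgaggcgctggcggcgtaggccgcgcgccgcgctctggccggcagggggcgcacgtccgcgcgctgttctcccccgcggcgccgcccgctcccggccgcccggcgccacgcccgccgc
Prdx1: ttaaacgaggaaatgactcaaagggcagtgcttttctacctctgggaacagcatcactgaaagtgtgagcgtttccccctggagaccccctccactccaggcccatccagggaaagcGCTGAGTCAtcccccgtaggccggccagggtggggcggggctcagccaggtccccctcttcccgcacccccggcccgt
Txnrd1: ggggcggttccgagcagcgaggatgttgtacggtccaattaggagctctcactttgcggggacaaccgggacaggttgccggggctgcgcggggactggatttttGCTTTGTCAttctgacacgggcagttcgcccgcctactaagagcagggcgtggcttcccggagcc

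The core began 134 bases before the start in Gclm, 133 bases in Prdx1 and 92 bases in Txnrd1, each on the opposite strand. Nfe2l2 also held a core match, 240 bases before its start, outside the longest stretch of its window before the start that is free of annotated exons. In total 5 of the 11 windows of these genes held a core match, each in a different gene, and 12.4% of all promoter windows held it. The genes with a match before the start were on both sides of 0, Nfe2l2 and Gclm higher in PDR and Txnrd1 and Prdx1 higher in SKYD on the deposited scale, with Prdx1 at -0.04. A match is a description of the letters and not a bound site.

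Of 13 further regulators of the pathway 9 passed the filter. On log2(FPKM + 1) 0 of these 9 passed 2-fold in either direction, where 7.38% of all tested genes did so toward PDR and 6.91% toward SKYD, and 8 had a negative difference, as had 5240 of all 10399 tested genes. The median was -0.44, against -0.0035 for all tested genes. Over all 13 genes with no filter it was -0.24. The median of the 9 genes became 0.20 when centred on macrophage markers, where that of all tested genes was 0.65. Rbx1, the ring subunit of the ligase that KEAP1 serves, was at 88.3 FPKM in PDR and 115 FPKM in SKYD, a difference of -0.38. Sqstm1, the autophagy receptor p62 that binds KEAP1, was at 78.1 FPKM in PDR and 85.4 FPKM in SKYD, a difference of -0.13. Both were thus higher in SKYD on the deposited scale, with Sqstm1 differing less.

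Genes of glutathione supply and use had a median of -0.21 over the 13 of 15 genes that passed, 0.44 when centred on macrophage markers, and -0.07 over all 15 genes with no filter. On the deposited scale 6 were positive, 7 negative and 0 past 2-fold, where 7.38% of all tested genes were toward PDR and 6.91% toward SKYD. Gpx1, the abundant glutathione peroxidase, was at 2752 FPKM in PDR and 3757 FPKM in SKYD. Gstp1, a glutathione transferase, went the other way, at 408 FPKM in PDR and 251 FPKM in SKYD. Thioredoxins and other peroxiredoxins had a median of 0.03 over 9 of 10 genes, -0.05 with no filter and 0.67 when centred on macrophage markers, with 0 past 2-fold on the deposited scale beside the same shares. Txn1, the thioredoxin that Txnrd1 reduces, was at 556 FPKM in PDR and 627 FPKM in SKYD, while Prdx5 was at 471 FPKM in PDR and 335 FPKM in SKYD. The list thus held genes on both sides, as the 10 genes did.

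Genes of NADPH supply, which feeds glutathione and thioredoxin reduction, had a median of 0.34 over 6 genes. Past 2-fold were 0 of them, beside 7.38% of all tested genes toward PDR and 6.91% toward SKYD, a count too small to set apart from that background. Centred on macrophage markers the median was 0.99, with 3 genes past 2-fold higher in PDR, beside a median of 0.65 and 24.6% for all tested genes. Taldo1 was at 274 FPKM in PDR and 310 FPKM in SKYD, and Idh1 at 134 FPKM in PDR and 115 FPKM in SKYD. Of the 3 further genes that remove superoxide or peroxide, 1 was past 2-fold higher in SKYD, as were 6.91% of all tested genes. That gene was Sod3, the secreted dismutase, at 0.148 FPKM or 13 reads in PDR and 2.42 FPKM or 226 reads in SKYD. It was 16.3-fold higher in SKYD in FPKM, with a difference of -1.57 (-1.69 to -1.41). Sod3 passed the filter only through SKYD, where it is high, and with the filter raised to 5 FPKM the count was 0, beside 6.48% of all genes. Sod1 was at 13.0 FPKM in PDR and 16.2 FPKM in SKYD, and catalase, Cat, at 62.7 FPKM in PDR and 41.0 FPKM in SKYD.

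Of 14 other NRF2 targets, 12 passed the filter, with a median of -0.18 that became -0.31 with the filter raised to 5 FPKM and 0.47 when centred on macrophage markers, 1 gene past 2-fold higher in SKYD and 0 past it in PDR. The gene past 2-fold was Hmox1, haem oxygenase, at 30.4 FPKM or 1251 reads in PDR and 79.5 FPKM or 3480 reads in SKYD. SKYD was 2.61-fold higher, with a difference of -1.36 (-1.45 to -1.27), close to that of Srxn1. The ferritin chains were the most abundant of the list, Fth1 at 3753 FPKM in PDR and 5261 FPKM in SKYD and Ftl1 at 1820 FPKM in PDR and 3143 FPKM in SKYD. Both were higher in SKYD by less than 2-fold on the deposited scale. Over the 6 antioxidant lists together, 52 of 61 genes passed, with 21 positive and 31 negative differences, 0 genes past 2-fold higher in PDR and 2 higher in SKYD, beside 7.38% and 6.91% of all tested genes. Centred on macrophage markers the counts were 12 and 0, beside 24.6% and 3.13% of all tested genes, so 12 of 52 is close to that background.

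**Figure D3:**
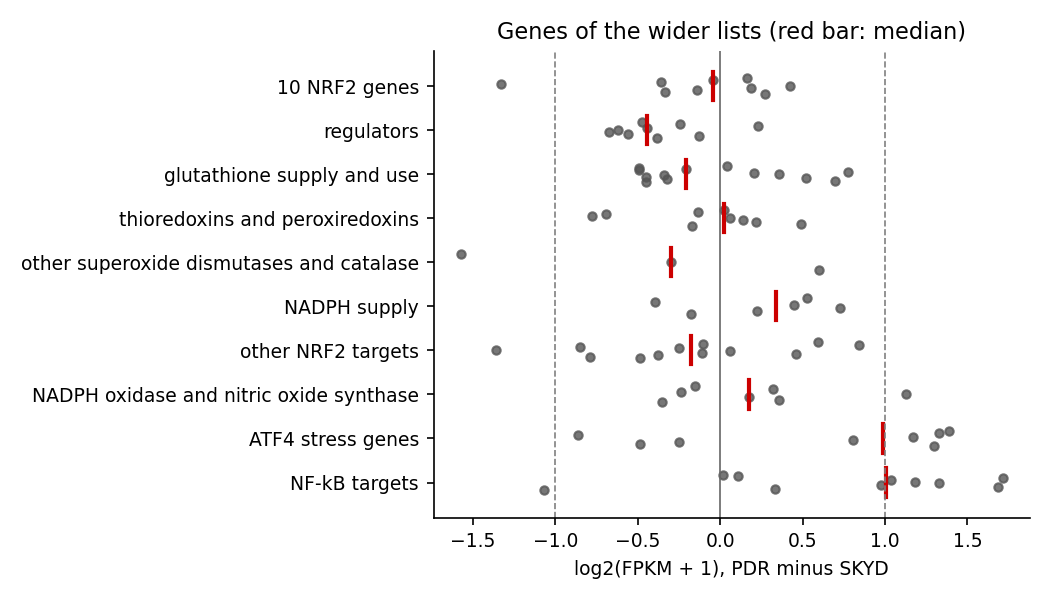
Differences in log2(FPKM + 1), PDR minus SKYD, of the 10 genes and of each wider list, 1 point a gene that passed the filter, with the list's median in red and dashed lines at 2-fold. The 10 genes have a median of -0.04, and the ATF4 and NF-kB lists have medians of 0.99 and 1.01.

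Lists of neighbouring pathways were set beside the antioxidant genes. Among genes of the NADPH oxidase and nitric oxide synthases, 7 of 10 passed, with a median of 0.18 and 1 gene past 2-fold higher in PDR, as were 7.38% of all tested genes. That gene was Cybb, the catalytic chain of the phagocyte oxidase, at 119.6 FPKM in PDR and 54.3 FPKM in SKYD. Its partner chain Cyba was at 1461 FPKM in PDR and 1864 FPKM in SKYD, and Rac2 at 245 FPKM in PDR and 191 FPKM in SKYD. The subunits thus lay on both sides of 0 on the deposited scale. The list's median was 0.08 with no filter. Centred on macrophage markers it was 0.82, with 2 genes past 2-fold higher in PDR, beside a median of 0.65 and 24.6% for all tested genes.

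The ATF4 list bears on Slc7a11, which stands with the NRF2 genes here. Its 8 genes all passed, with a median of 0.99, from 0.80 to 1.64 under the other settings, 4 past 2-fold higher in PDR and 0 higher in SKYD, where all tested genes gave 7.38% and 6.91%. Trib3 was at 2.26 FPKM in PDR and 0.245 FPKM in SKYD, and Chac1, which degrades glutathione, was at 2.55 FPKM in PDR and 0.416 FPKM in SKYD. Both passed the filter only through PDR, and with the filter raised to 5 FPKM the count was 2, beside 8.06% of all genes. Phgdh was at 86.0 FPKM in PDR and 34.4 FPKM in SKYD, and Asns at 11.1 FPKM in PDR and 4.34 FPKM in SKYD. These 4 were all higher in PDR, whereas Slc7a11 and the transcript of Atf4 itself, at 43.5 FPKM in PDR and 61.5 FPKM in SKYD, were higher in SKYD on the deposited scale. So were Ddit3, at 10.6 FPKM in PDR and 12.8 FPKM in SKYD, and Sesn2, at 1.27 FPKM in PDR and 3.13 FPKM in SKYD, both named after their values were seen. Sesn2 was 2.46-fold higher in SKYD in FPKM (1.95 to 3.11), and the count in SKYD was 1 with a pseudocount of 0.1, with 0.01 or with ratios of reads, beside 9.71%, 10.1% and 13.8% of all tested genes.

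NF-kB targets, listed because of Sod2, had a median of 1.01 over 10 genes, with 5 past 2-fold higher in PDR and 1 higher in SKYD, beside 7.38% and 6.91% of all tested genes. The counts were 6 and 0 on reads of protein-coding genes, beside 8.97% and 6.17%, and again 6 and 0 when centred on macrophage markers, beside 24.6% and 3.13%. Tnf was at 7.25 FPKM in PDR and 1.51 FPKM in SKYD, and Ccl5 at 88.7 FPKM in PDR and 26.9 FPKM in SKYD. Icam1 was at 15.1 FPKM in PDR and 5.43 FPKM in SKYD, and Nfkb2 at 12.1 FPKM in PDR and 4.76 FPKM in SKYD. Nfkbia, the inhibitor, was the exception, at 230.3 FPKM in PDR and 485 FPKM in SKYD, and Il1b was at 89.8 FPKM in PDR and 71.1 FPKM in SKYD. Sod2, at 0.16, differed less than most of these genes. Nfkb1, at a difference of 0.11, and Tnfaip3, at 0.01, differed less than Sod2, and both were named after their values were seen.

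The macrophage label was checked against markers. All 18 macrophage markers had reads in both libraries, and their summed FPKM was 24994 in PDR and 48338 in SKYD, led by Lyz2 at 22217 FPKM in PDR and 41336 FPKM in SKYD. Their median difference was -0.65, with 14 markers negative and 4 positive, from -3.25 to 0.84. The 4 positive ones were Csf1r, Fcgr1, Timd4 and Marco, named after their values were seen. Adgre1 was at 87.3 FPKM in PDR and 93.3 FPKM in SKYD, a difference of -0.10, and Itgam at 8.84 FPKM in PDR and 14.4 FPKM in SKYD, a difference of -0.64 close to the list's median, so the genes of the sorting antigens differed unequally. Macrophage markers were thus present but unequal and on both sides of 0, and centring on their median raised every difference by 0.65 on the log2 scale. Gclm then stood at 1.08 and passed 2-fold higher in PDR, and 0 members passed it in SKYD, but 24.6% of all tested genes then passed it toward PDR and 3.13% toward SKYD. Keap1, Nqo1, Txnrd1 and Prdx1 changed sign with this common shift, and Slc7a11 did so only with the pseudocount. Of the calls over all tested genes, 2562 were higher in PDR and 326 in SKYD, 88.7% of them in PDR against 51.6% on the deposited scale. With ratios of reads centred on the same markers, an alternative added after the values were seen, Gclc, Gclm and Nfe2l2 were past 2-fold in PDR and 0 members in SKYD, beside 38.3% and 6.70% of 16519 genes. Srxn1 was then at -0.81. Relative to Adgre1, Gclm was 1.52 times as high in PDR as in SKYD (1.37 to 1.69), and relative to Itgam 2.31 times (2.04 to 2.63).

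**Figure D4:**
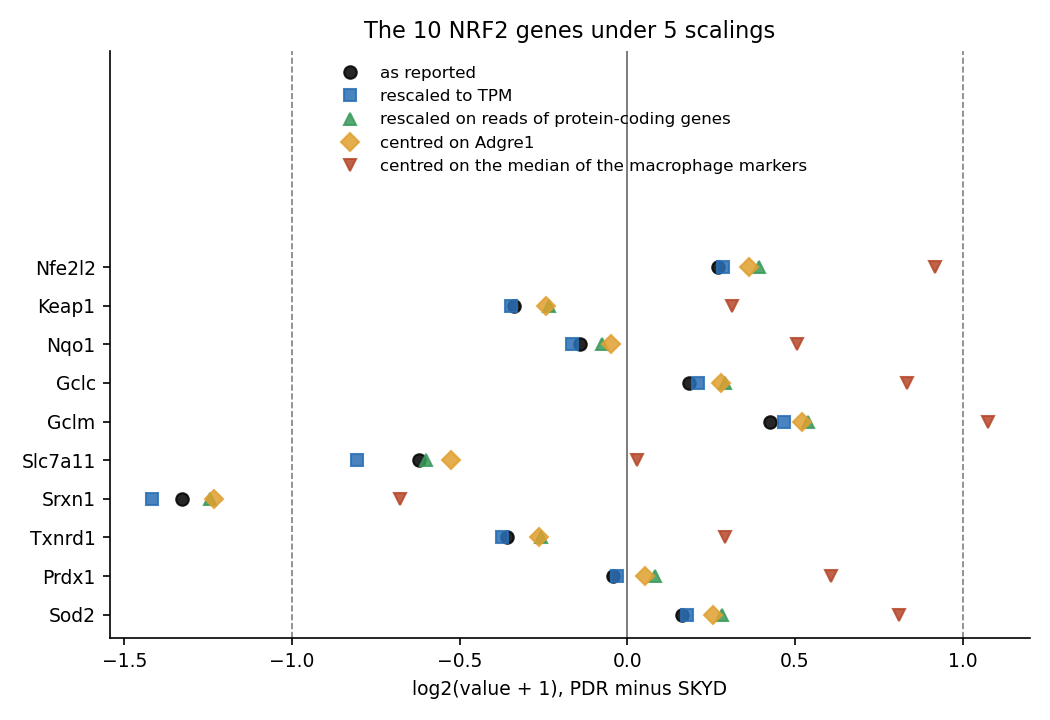
Differences of the 10 genes, PDR minus SKYD on a log2(value + 1) scale, as deposited, rescaled to TPM, rescaled on reads of protein-coding genes, centred on Adgre1 and centred on the median of the macrophage markers. Srxn1 stays below 0 under these 5 scalings, from -1.42 to -0.68, and Gclm stays above 0, reaching 1.08.

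Markers of other cells also differed between the libraries, and several of those cells use antioxidant genes themselves. All 12 neutrophil markers had reads, with a summed FPKM of 4895 in PDR and 3738 in SKYD, led by S100a9. The hepatocyte list had 13 of its 14 genes in the table, all with reads, and summed to 2379 FPKM in PDR and 790.2 FPKM in SKYD, led by Apoa2. Erythroid markers, 9 of 10 in the table, summed to 20989 FPKM in PDR and 28335 FPKM in SKYD, led by Hba-a1, and Klf1 was at 0 reads in PDR. The neutrophil sum and all 13 hepatocyte genes were higher in PDR, and the erythroid sum was higher in SKYD. Of the neutrophil markers 10 were higher in PDR and 2 in SKYD, Retnlg and Mmp8, named after their values were seen.

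Lymphoid and platelet lists differed as well. All 10 B cell markers had reads and summed to 5396 FPKM in PDR and 3306 FPKM in SKYD, led by Ighm. All 12 T and NK cell markers had reads and summed to 524 FPKM in PDR and 3451 FPKM in SKYD, led by Trbc2. The natural killer markers of that list went against the sum, Ncr1 at 11.2 FPKM in PDR and 2.49 FPKM in SKYD and Klrb1c at 4.59 FPKM in PDR and 3.28 FPKM in SKYD, both named after their values were seen. Platelet markers summed to 249 FPKM in PDR and 1470.1 FPKM in SKYD, led by Pf4 at 218 FPKM in PDR and 1446 FPKM in SKYD, and 5 of 6 had reads, with Gp1bb at 0 in both. The other 4 platelet markers with reads were higher in PDR, and the list's median difference was 0.27. B cell markers were thus higher in PDR and the T and NK cell sum in SKYD, and the higher platelet sum in SKYD rested on Pf4.

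Among markers of vessel wall cells, the 6 of fibroblasts summed to 10.8 FPKM in PDR and 43.7 FPKM in SKYD, led by Dcn at 10.03 FPKM in PDR and 39.4 FPKM or 5747 reads in SKYD. The smooth muscle list summed to 3.15 FPKM in PDR and 2.92 FPKM in SKYD, led by Des in PDR, at 1.60 FPKM against 0.586 FPKM, and by Acta2 in SKYD, at 2.34 FPKM against 1.55 FPKM, with Myh11, Cnn1 and Tagln at 0 reads in both libraries, a count that allows up to 3 reads. The 6 endothelial markers summed to 4.46 FPKM in PDR and 2.91 FPKM in SKYD, led by Pecam1 at 3.89 FPKM in PDR and 2.57 FPKM in SKYD. Emcn, at 0 in PDR, was higher in SKYD, as were Vwf and Kdr, whose intervals included 0. Cdh5 and Tek were higher in PDR. Vwf, Kdr, Cdh5 and Tek were named after their values were seen. The part of each of these cell types in the differences of the 10 genes was not tested.

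**Figure D5:**
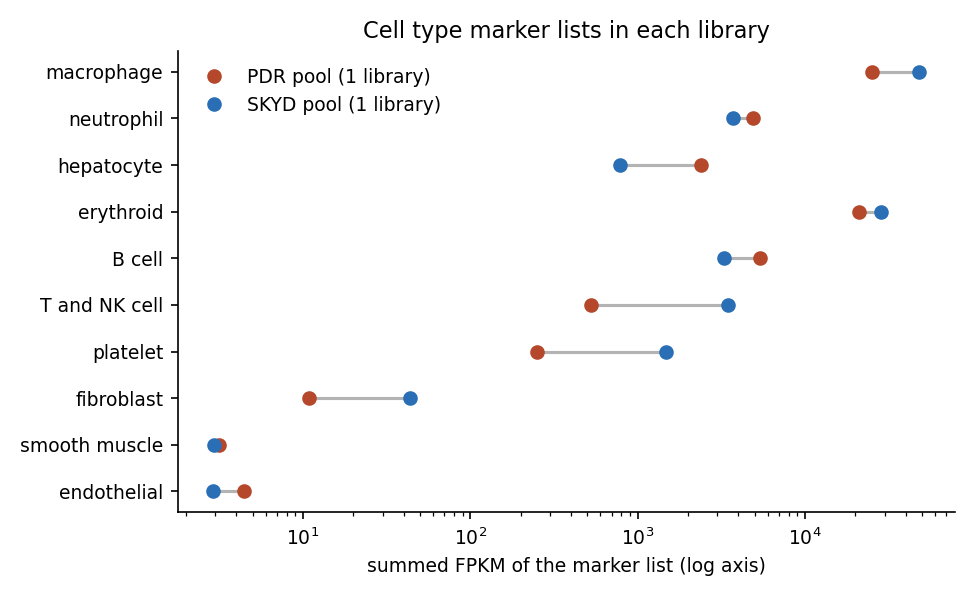
Summed FPKM of each cell type marker list on a log axis in the PDR library and the SKYD library. Macrophage, erythroid, T and NK cell, platelet and fibroblast sums are higher in SKYD, and neutrophil, hepatocyte, B cell, smooth muscle and endothelial sums are higher in PDR.

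Reads that other genes could share with the 10 genes were few by position. The strand setting of the counting is not given in the sources used here, so reads of an opposite strand could not be separated. Of the 10 genes, 5 overlapped 12 other rows of the table, of which 4 had reads. Gm17494 on the strand opposite Gclm had 74 reads in PDR and 47 in SKYD, and Gm38560 opposite Txnrd1 had 33 in PDR and 6 in SKYD. Gm16754 opposite Keap1 had 7 reads in PDR and 0 in SKYD, and Gm37498 within Slc7a11 had 8 in PDR and 9 in SKYD. These counts were small beside those of the 10 genes. By sequence, none of the 100-base stretches in the transcripts of Nfe2l2, Nqo1, Gclc, Srxn1 and Txnrd1 occurred in another gene's transcripts. The share was 12.8% for Sod2, 4.58% for Keap1, 3.09% for Gclm, 0.613% for Prdx1 and 0.251% for Slc7a11. The genes that share those stretches had 111 reads in PDR and 31 in SKYD for Sod2, and 372 and 377 for Prdx1. Those of Gclm, Ppia among them, had 89247 reads in PDR and 107923 in SKYD, and those of Slc7a11, Tuba1a and Tuba1b among them, had 16212 and 20464, far more than the members themselves. How the counting placed reads from such stretches was not tested, so the values of Gclm and Slc7a11 are uncertain.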

How the data were processed

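Gene expression was measured by RNA sequencing in 1 pooled library of each group. Per the submitters' processing notes the tools included Bowtie2 2.0.6, TopHat2 2.0.9 and HTSeq 0.6.1. The authors deposited FPKM values for 54532 genes in 2 libraries. They were scaled to gene length and to a library size that differed from the reads on genes. The labels name mm9, but 53462 of 54409 genes shared with a GENCODE annotation of GRCm38 had the same position there, as did all 10 members, so positions are given as GRCm38.

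Multiplying FPKM by gene length and dividing by the step of 1 read gave back the reads, and 100% of values above 0 came out whole within 0.01. The recovery and the intervals were tested on simulated data. Differences are on log2(FPKM + 1) for genes whose mean FPKM was 1 or more, and called means past 2-fold. Intervals are exact, Clopper-Pearson on the split of reads, Poisson on reads and conditional on ratios of genes. Named genes are the 10 members, of each wider list the 2 genes with the highest mean FPKM and those past 2-fold, at most 4 by size, and of each marker list the most abundant gene, with others marked as chosen later. The members and lists were chosen with earlier results of these data known. Alternatives were other pseudocounts, filters, scalings and thresholds. Software was scipy 1.17.1 with pandas 2.3.3 on Python 3.11.15, plus matplotlib 3.10.9 for plots and numpy 2.4.6 for arithmetic.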

Additional observations from a re-analysis of the deposited data

How the results depend on the processing

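Of 126 values that the differences of the 10 genes took under the alternatives, 78 were within the counting interval of the reported value and 48 were not, and Srxn1, the 1 member past 2-fold, did not change sign. Part of this tally was fixed by construction. A filter leaves a gene's own difference unchanged, and the pseudocount of 0.1 with no filter repeats the values of the pseudocount of 0.1. Nfe2l2, Gclc, Gclm and Sod2 were positive under every alternative tried, and Srxn1 was negative, from -1.61 to -0.68.

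The number of members past the threshold and higher in SKYD was 2 with ratios of reads and with a pseudocount of 0.1 and no filter, which add Slc7a11, and 0 at 4-fold. The shares of all tested genes toward SKYD were 13.8%, 6.55% and 2.08% in that order. Centring on the macrophage markers or on Itgam gave 0 in SKYD and 1 in PDR, Gclm. All tested genes then gave 3.13% and 3.16% toward SKYD and 24.6% and 24.4% toward PDR. Ratios of reads centred on the macrophage markers gave 0 in SKYD and 3 in PDR, beside 6.70% and 38.3%. The median of the members was 0.0598 with a mean FPKM of at least 5, which leaves 6 of them, and 0.0840 on reads of protein-coding genes. Centred, it was 0.0528 on Adgre1, 0.60 on Itgam, 0.61 on the macrophage markers, and 0.65 on these markers with ratios of reads. It was -0.0923 with no filter and -0.102 with uncentred ratios of reads. With a pseudocount of 0.1 and no filter it was -0.142. Protein-coding scaling moved the median of all tested genes by 0.11 and macrophage centring by 0.65. Ratios of reads alone moved it by 0.05, and ratios of reads with macrophage centring, 2 changes at once, by 0.80. Ratios of reads take the reads on genes as the library size, in place of the size behind the FPKM, and use no pseudocount.

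Of all tested genes, those higher in PDR and in SKYD past the threshold were 464 and 373 with a mean FPKM of at least 5, 2562 and 326 with macrophage centring, 2620 and 2281 with ratios of reads, 1574 and 1562 at 1.5-fold, 194 and 216 at 4-fold, and 2563 and 3572 with a pseudocount of 0.1 and no filter, where 41.8% of calls were in PDR. With a mean FPKM of at least 5 no value could be given for Nqo1, Gclc, Txnrd1 and Slc7a11. The setting with no filter and a smaller pseudocount, the centring on Adgre1, that on Itgam and the centred ratios of reads were chosen after seeing the data. The cause of the shifts was not tested. Depth limits Nqo1 most, with 40 and 51 reads.

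No paired analysis was possible because each group is 1 pooled library and no test was run.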
